A study of Bos taurus with 24 samples.

Results

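The genes described here make glycerolipids and phospholipids and package them into lipid droplets. They were taken from a fixed list of 41 gene names, matched to the gene names of the deposited tables and then by gene identifier across the days. Of the 41 names, 40 matched 1 row among 27570 genes, and PISD was not analysed here. The 40 genes fall into the supply of glycerol 3-phosphate (2 genes), the glycerol-3-phosphate acyltransferases (3), the AGPATs (5), the lipins (3) and DGAT1. The others are lysophospholipid acyltransferases (8), genes of the CDP-diacylglycerol branch (3), genes of the choline and ethanolamine branch (7), PTDSS1, PTDSS2 and PEMT, and genes of the lipid droplet (5). All 40 were annotated as protein coding.

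Pre-adipocytes from the subcutaneous fat of 6 Holstein cows were grown with 5 µM troglitazone, an activator of PPARG, in every group, and had isobutylmethylxanthine and dexamethasone for the first 48 h only. CON cultures had basal medium without added fatty acid. PA cultures received the saturated palmitic acid, OA cultures the monounsaturated oleic acid, and MIX cultures both (60% PA and 40% OA), each with 300 µM fatty acid in total. Cows 4, 5 and 6 gave the day 4 libraries, in which treatment began during induction, and cows 1, 2 and 3 gave the day 7 libraries, in which it began afterwards. Each treatment and day has 3 RNA-seq libraries, 1 per cow, and the 4 treatments of a day come from the same 3 cows. The ages of the cows were not given in the sources used here.

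Triacylglycerol and the main phospholipids share their first steps. Glycerol 3-phosphate is acylated to lysophosphatidic acid and then to phosphatidic acid, which lipins turn into diacylglycerol. Diacylglycerol is either acylated to triacylglycerol, the storage lipid of adipocytes, or joined to a choline or ethanolamine head group carried by CDP. Phosphatidic acid can also enter the CDP-diacylglycerol branch that ends in cardiolipin, and finished phospholipids exchange acyl chains through the lysophospholipid acyltransferases.

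Libraries held 13509548 to 17071654 counts at day 4, and 14118798 to 24008811 reads were recovered from the day 7 FPKM (fragments per kilobase of transcript, scaled to library size). Although the labels call the cells adipocytes, 5 of 9 adipocyte markers averaged at least 1 FPKM at day 4 and 2 of 9 at day 7, and ADIPOQ, the adipokine adiponectin, was 0 in all day 7 libraries. The sum of the adipocyte markers ran from 26.8 to 83.6 FPKM (day 4) and from 11.4 to 19.6 (day 7). PNPLA2 was the largest part of the day 7 sum, averaging 12.6 FPKM there and 8.34 at day 4. FABP4 averaged 30.3 FPKM at day 4 and 0.405 at day 7, and PPARG 3.07 and 0.230. For 10 preadipocyte and fibroblast markers, all averaging at least 1 FPKM, the sum ran from 6752 to 21510 and from 11651 to 26729. That of smooth muscle and myofibroblast markers ran from 320.7 to 2727 FPKM and from 1625 to 5949, with 6 and 5 of 7 markers at 1 FPKM or more. TAGLN, ACTA2, ACTG2 and CNN1 made up nearly all of it, while MYH11 averaged 0.666 and 0.545 FPKM and DES 1.20 and 0.364. Sums of endothelial, of leukocyte, and of epithelial and mesothelial markers stayed at or below 14.3 FPKM, with CDH5, CLDN5 and EPCAM at 0 in all day 4 libraries. The mesothelial marker MSLN reached 12.7 FPKM at day 7. The 4 libraries of cow 6 stood apart: 735 of 12841 genes (5.72%) lay below 0.5 times the lowest library of the other cows, against 1.32% for cow 4 and 0.319% for cow 5. In these bulk samples, fewer cells of a type and less RNA per cell cannot be told apart.

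Every role listed above had a gene whose RNA averaged at least 1 FPKM at both days. GPAT4, LPIN2, CEPT1 and PTDSS1 each made up most of the summed FPKM of their group on average. Of the 40 genes, 21 averaged at least 10 FPKM at day 4, 18 lay between 1 and 10 and 1 was below 1. At day 7 these numbers were 23, 16 and 1. PTDSS1 was the most abundant at both days, followed by LPCAT1, DGAT1 and MBOAT7 at day 4 and by MBOAT7 and LPCAT1 at day 7. CIDEC was the lowest at both days. FPKM is scaled to gene length, with 1 annotated length per gene, so these levels can be compared only roughly between genes. Of the 40 genes, 13 overlapped another annotated gene, CEPT1 among them, and their reads may be less certain.

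**Figure D1:**
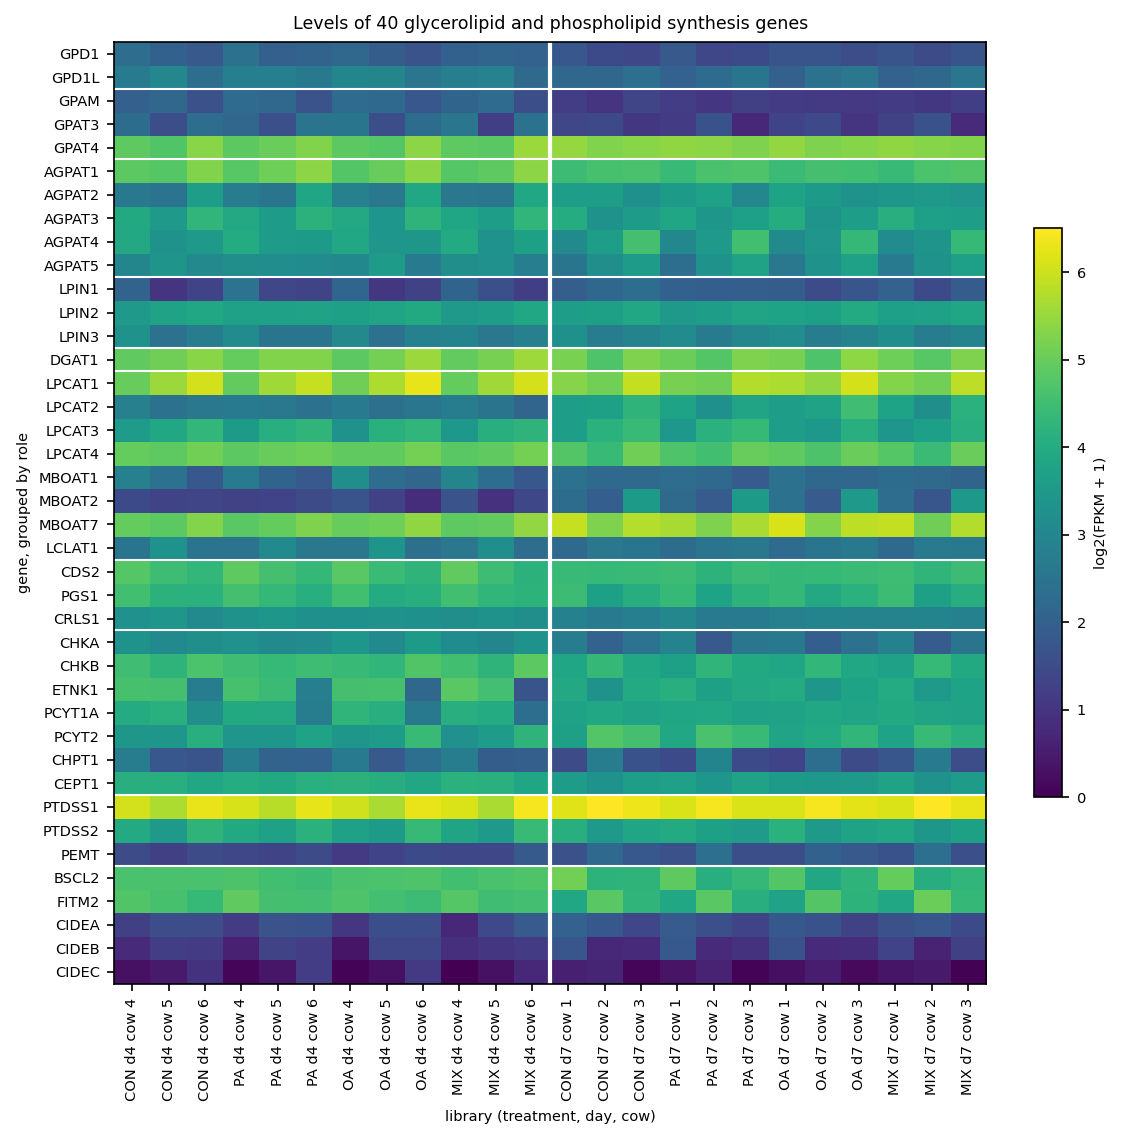
Levels of the 40 genes (rows, grouped by role, white lines between groups) in the 24 libraries (columns, day 4 left and day 7 right of the white line), as log2(FPKM + 1) on the colour scale. PTDSS1, LPCAT1, MBOAT7, GPAT4, DGAT1 and LPCAT4 are bright in every library, the CIDE genes are dark, and ETNK1 and PCYT1A are darker in the 4 libraries of cow 6.

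Glycerol 3-phosphate is made from dihydroxyacetone phosphate by GPD1, and GPD1L is its close homologue. GPD1L was the more abundant of the pair, with a mean share of 64.0% ± 5.30 (SD, n = 12 libraries) at day 4 and 65.4% ± 6.33 at day 7. At day 4, GPD1L was 5.48, 7.08 and 4.06 FPKM in CON of cows 4, 5 and 6, 5.96, 5.99 and 5.21 in PA, 6.98, 6.73 and 4.86 in OA, and 5.83, 6.37 and 3.74 in MIX. Day 7 values were 3.54, 3.45 and 4.22 FPKM in CON of cows 1, 2 and 3, 3.15, 3.83 and 4.72 in PA, 2.96, 4.34 and 5.02 in OA, and 3.16, 3.49 and 4.86 in MIX. Cow 6 was the lowest cow of day 4 in each treatment, cow 3 the highest of day 7, and the treatments overlapped. GPD1 ranged from 2.15 to 4.37 FPKM at day 4 and from 1.60 to 2.53 at day 7.

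The first acylation is carried out by GPAM in the outer mitochondrial membrane and by GPAT3 and GPAT4 in the endoplasmic reticulum. GPAT4 supplied 82.9% ± 3.55 (SD, n = 12) of the summed FPKM of the 3 at day 4 and 93.8% ± 0.844 at day 7. GPAT4 levels at day 4 were 28.6, 25.8 and 39.5 FPKM in CON of cows 4, 5 and 6, 28.4, 31.2 and 37.4 in PA, 28.3, 26.8 and 40.5 in OA, and 28.9, 27.8 and 45.2 in MIX. At day 7 the values for cows 1, 2 and 3 were 43.3, 37.6 and 40.0 FPKM in CON, 42.0, 40.2 and 37.3 in PA, 42.8, 36.7 and 39.3 in OA, and 41.9, 38.9 and 37.5 in MIX. Cow 6 was highest in all treatments of day 4, and the treatments overlapped at both days. GPAM averaged 3.08 ± 0.731 FPKM at day 4 and 1.22 ± 0.158 at day 7, and GPAT3 averaged 3.43 ± 1.28 and 1.40 ± 0.473.

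AGPATs add the second acyl chain, and loss of AGPAT2 causes a congenital lipodystrophy in people. AGPAT1 had the highest share of the 5, at 43.6% ± 3.32 (SD, n = 12) at day 4 and 34.5% ± 2.62 at day 7. Its day 4 levels were 28.4, 26.4 and 37.6 FPKM in CON of cows 4, 5 and 6, 27.2, 32.3 and 40.4 in PA, 26.2, 30.7 and 40.6 in OA, and 26.9, 28.6 and 40.7 in MIX. At day 7 they were 21.1, 23.4 and 24.1 FPKM in CON of cows 1, 2 and 3, 20.4, 23.9 and 25.3 in PA, 20.6, 23.1 and 22.1 in OA, and 19.8, 24.3 and 25.5 in MIX. Cow 6 was again highest in each treatment, and the treatments overlapped. AGPAT2 separated the cows more widely, at 11.5 to 14.0 FPKM in cow 6 against 4.58 to 6.08 in cows 4 and 5. AGPAT4 was 19.1 to 23.2 FPKM in cow 3 and 7.22 to 11.4 in cows 1 and 2. AGPAT3 averaged 14.2 and 12.1 FPKM at the 2 days, and AGPAT5 7.85 and 8.50. AGPAT1 overlaps EGFL8 on the opposite strand of the annotation, and the strand setting of the counting was not given.

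Lipins remove the phosphate of phosphatidic acid, and LPIN1 is the lipin whose loss causes lipodystrophy in mice. LPIN2 was the main lipin here, at 60.8% ± 8.47 (SD, n = 12) of the 3 at day 4 and 56.4% ± 4.85 at day 7, while LPIN1 held 10.2% ± 4.57 and 12.8% ± 2.55. LPIN2 levels at day 4 were 10.4, 12.5 and 13.7 FPKM in CON of cows 4, 5 and 6, 12.3, 12.1 and 12.3 in PA, 11.9, 12.9 and 14.3 in OA, and 10.6, 11.5 and 13.7 in MIX. At day 7 those of cows 1, 2 and 3 were 11.3, 11.99 and 13.8 FPKM in CON, 10.5, 11.6 and 13.0 in PA, 12.6, 11.9 and 14.6 in OA, and 11.7, 12.3 and 13.5 in MIX. No treatment stood clear of another. LPIN3 averaged 6.03 ± 1.51 and 6.83 ± 1.20 FPKM.

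DGAT1 makes triacylglycerol from diacylglycerol, and in cattle a variant of this gene is known for its effect on milk fat. DGAT1 at day 4 was 28.9, 33.1 and 39.6 FPKM in CON of cows 4, 5 and 6, 30.1, 37.7 and 37.5 in PA, 28.2, 34.5 and 44.7 in OA, and 29.6, 35.0 and 46.1 in MIX. In the day 7 libraries DGAT1 was 35.4, 25.4 and 37.3 FPKM in CON of cows 1, 2 and 3, 32.0, 26.3 and 37.1 in PA, 35.3, 25.1 and 40.8 in OA, and 32.4, 26.9 and 37.1 in MIX. Cow 4 and cow 2 were the lowest of their days in every treatment, and the treatments overlapped. With cow as a block, the log2 difference of OA and CON in DGAT1 was 0.06 ± 0.08 (SE; 95% interval -0.11 to 0.23) at day 4 and 0.04 ± 0.06 (-0.09 to 0.17) at day 7.

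LPCAT1 to LPCAT4, MBOAT1, MBOAT2, MBOAT7 and LCLAT1 reacylate lysophospholipids. LPCAT1 is known for making dipalmitoyl phosphatidylcholine in lung surfactant, LPCAT3 for adding polyunsaturated chains, and MBOAT7 for adding arachidonate to phosphatidylinositol. LPCAT1 had 47.9% ± 5.94 (SD, n = 12) of the summed FPKM of the 4 LPCATs at day 4 and 45.2% ± 2.94 at day 7. MBOAT7 had 73.2% ± 6.82 and 77.8% ± 4.10 of the other 4. MBOAT7 averaged 33.2 ± 5.25 and 49.6 ± 10.9 FPKM, and LPCAT4 30.7 ± 2.45 and 26.7 ± 4.46. LCLAT1 averaged 5.97 and 4.58 FPKM. MBOAT2 was 0.807 to 2.23 FPKM at day 4, and at day 7 was 10.1 to 10.7 in cow 3 against 2.36 to 4.42 in cows 1 and 2. The per-sample values of LPCAT1, MBOAT1 and LPCAT3 stand with their comparisons, further on.

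In the CDP-diacylglycerol branch, CDS2 activates phosphatidic acid, PGS1 makes the precursor of phosphatidylglycerol and CRLS1 makes cardiolipin. CDS2 at day 4 was 26.4, 21.4 and 18.7 FPKM in CON of cows 4, 5 and 6, 28.8, 23.0 and 19.0 in PA, 27.7, 20.6 and 17.7 in OA, and 28.9, 21.4 and 17.2 in MIX. CDS2 at day 7 was 20.2, 19.5 and 20.1 FPKM in CON of cows 1, 2 and 3, 21.1, 17.5 and 20.7 in PA, 19.0, 19.6 and 20.6 in OA, and 21.4, 18.0 and 20.9 in MIX. The order of the day 4 cows, with cow 4 highest and cow 6 lowest, was the same in all 4 treatments. PGS1, which overlaps DNAH17 on the opposite strand, averaged 18.7 ± 2.89 and 16.4 ± 3.35 FPKM, and CRLS1 8.75 ± 0.640 and 6.19 ± 0.550.

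Choline and ethanolamine are phosphorylated by CHKA, CHKB and ETNK1, activated by PCYT1A (choline) and PCYT2 (ethanolamine), and joined to diacylglycerol by CHPT1 and CEPT1. CHKB at day 4 was 21.8, 17.9 and 24.5 FPKM in CON of cows 4, 5 and 6, 21.6, 19.5 and 21.6 in PA, 19.8, 18.5 and 25.6 in OA, and 22.0, 17.7 and 28.0 in MIX. CHKB at day 7 was 13.1, 19.2 and 13.8 FPKM in CON of cows 1, 2 and 3, 12.1, 18.2 and 14.5 in PA, 13.4, 18.9 and 13.7 in OA, and 12.1, 19.4 and 14.4 in MIX. Cow 2 was highest in each treatment of day 7. CHKB overlaps CPT1B on the same strand of the annotation, so its reads are uncertain. CEPT1 held 80.6% ± 5.40 (SD, n = 12) of the 2 phosphotransferases at day 4 and 78.5% ± 11.4 at day 7. CHPT1, which overlaps SYCP3 on the opposite strand, was 4.10 to 6.71 FPKM in cow 2 against 1.49 to 2.35 in cows 1 and 3.

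Cow 6 was lower than the other cows of day 4 in a pair of genes of this branch. ETNK1 was 5.71, 5.92, 3.48 and 2.20 FPKM in its CON, PA, OA and MIX libraries, and 20.7 to 27.4 in cows 4 and 5. PCYT1A, the rate-limiting enzyme of phosphatidylcholine synthesis, was 8.35, 5.72, 5.21 and 4.07 FPKM in the same libraries, and 14.2 to 17.9 in cows 4 and 5. Both genes were thus below the range of the other cows in all 4 libraries of cow 6, while PCYT2 was above it, at 12.4 to 20.0 FPKM against 8.78 to 11.0. Cow 6 lay below both other cows in this way in 26.6% of all genes with at least 1 FPKM in 3 libraries and in 5 of 39 such pathway genes, and above them in 27.5% and in 11 of 39. PCYT2 made up 50.5% ± 17.7 (SD, n = 12) of the summed FPKM of PCYT1A and PCYT2 at day 4 and 56.9% ± 6.73 at day 7, with a highest share of 81.3% in MIX of cow 6. ETNK1 was 1 of the 735 genes below 0.5 times the lowest library of the other cows. At day 7 ETNK1 was 8.89 to 16.1 FPKM and PCYT1A 12.3 to 14.3.

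**Figure D2:**
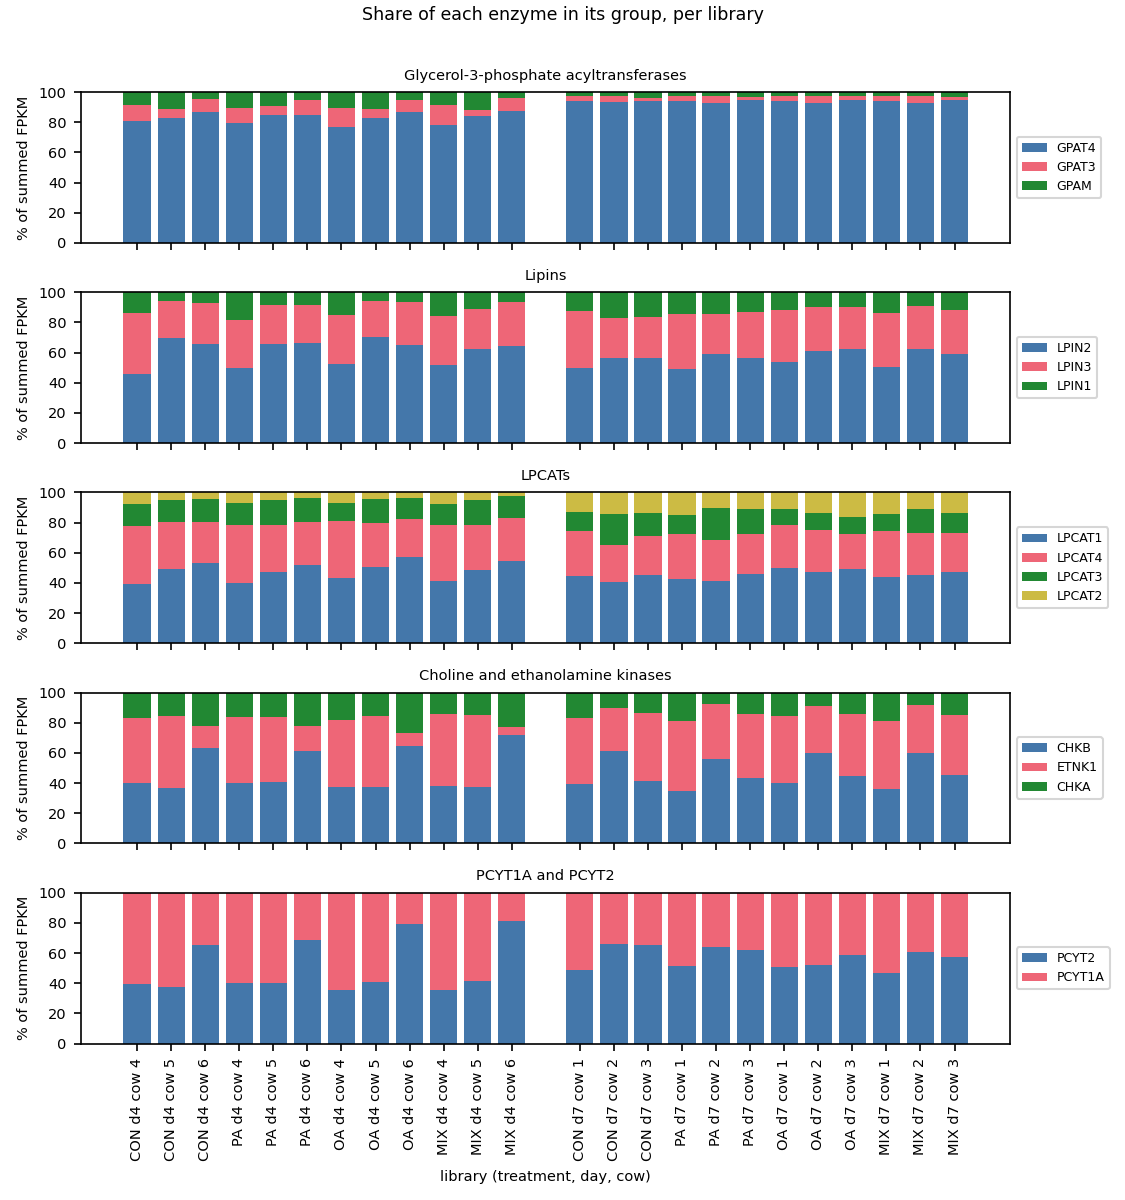
Share of each enzyme in the summed FPKM of its group (bars, %), for 5 groups of enzymes in the 24 libraries. GPAT4 exceeds 76% of its group in every library, LPIN2 is the widest part of the lipin bars, and in cow 6 the ETNK1 part is narrow and PCYT2 exceeds PCYT1A.

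PTDSS1 and PTDSS2 make phosphatidylserine by exchanging the head groups of phosphatidylcholine and phosphatidylethanolamine, and PEMT methylates phosphatidylethanolamine, mainly in liver. PTDSS1 at day 4 was 65.3, 51.1 and 76.6 FPKM in CON of cows 4, 5 and 6, 67.5, 54.8 and 75.7 in PA, 64.5, 50.2 and 77.6 in OA, and 69.8, 50.4 and 83.7 in MIX. Day 7 levels of PTDSS1 were 71.5, 89.7 and 79.5 FPKM in CON of cows 1, 2 and 3, 68.8, 84.4 and 69.8 in PA, 69.2, 85.0 and 74.2 in OA, and 69.8, 89.2 and 77.3 in MIX. Cow 5 was lowest and cow 2 highest in each treatment of their days, and the treatments overlapped. PTDSS1 held 82.2% ± 1.29 (SD, n = 12) of the 2 synthases at day 4 and 85.7% ± 3.16 at day 7. PEMT averaged 1.68 ± 0.352 and 2.69 ± 0.872 FPKM.

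BSCL2 (seipin) and FITM2 act in the formation of lipid droplets, and the CIDE proteins in their fusion and growth. BSCL2 was nearly level at day 4, at 23.9, 23.9 and 23.9 FPKM in CON of cows 4, 5 and 6, 24.6, 22.0 and 21.0 in PA, 23.8, 24.2 and 25.1 in OA, and 22.3, 23.8 and 25.2 in MIX. BSCL2 at day 7 was 34.0, 17.4 and 17.9 FPKM in CON of cows 1, 2 and 3, 28.5, 15.9 and 19.2 in PA, 26.0, 13.9 and 17.6 in OA, and 30.0, 15.7 and 18.4 in MIX. Cow 1 was above both other cows of day 7 in every treatment. BSCL2 overlaps GNG3 on the opposite strand. CIDEA averaged 1.71 ± 0.550 and 2.14 ± 0.515 FPKM, CIDEB 1.10 ± 0.433 and 1.24 ± 0.696, and CIDEC 0.46 ± 0.444 and 0.30 ± 0.204. CIDEC was highest in cow 6, at 0.667 to 1.28 FPKM against at most 0.378 in cows 4 and 5.

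Most of the variation of these genes lay between cows. Cow accounted for a median of 86.6% of the sum of squares of log2(FPKM + 1) at day 4 and 83.7% at day 7, and treatment for 2.90% and 5.52%. Over all genes the cow medians were 87.3% and 78.0% and the treatment medians 3.15% and 6.55%. The cow share exceeded the treatment share in 39 of 40 genes at day 4, with BSCL2 the exception, and in 38 of 40 at day 7, with LPIN1 and CRLS1 the exceptions. The highest cow mean was a median of 1.51 times the lowest at day 4 and 1.49 times at day 7. For treatment means the corresponding medians were 1.10 and 1.11.

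**Figure D3:**
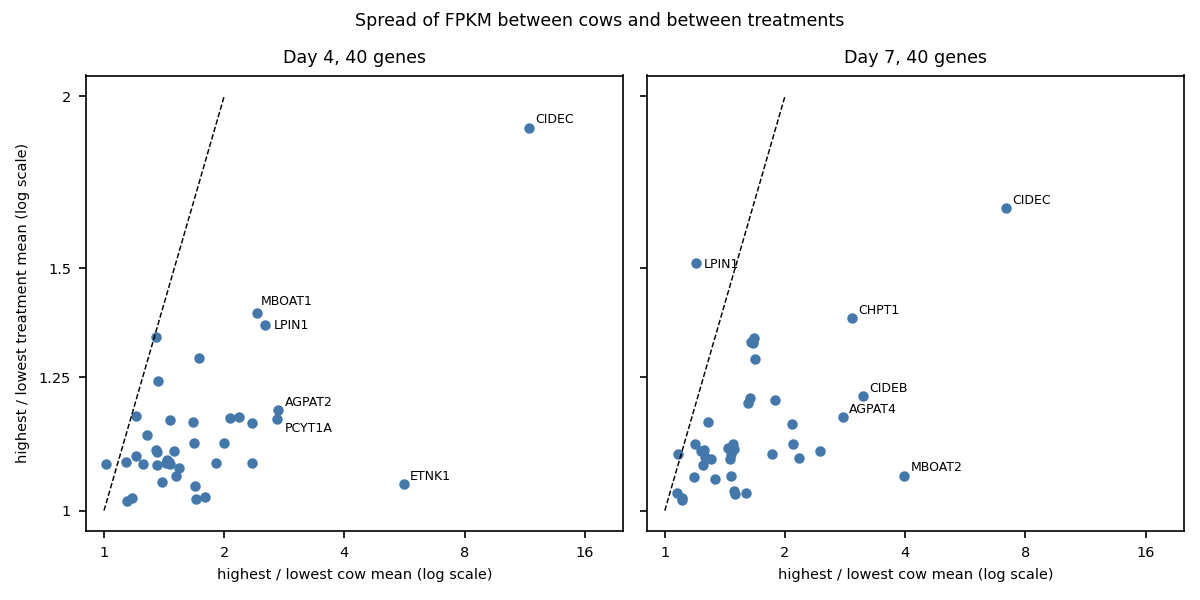
For each gene, the highest divided by the lowest cow mean (x axis) and the highest divided by the lowest treatment mean (y axis) of FPKM, on log scales, for day 4 (left) and day 7 (right). Points right of the dashed line of equality vary more between cows than between treatments. ETNK1 (5.63) and CIDEC (11.6) lie farthest right at day 4, and LPIN1 lies left of the line at day 7.

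The 2 days have different cows, separately normalised tables and different starts of treatment, so levels at the 2 days are only set side by side. LPCAT2 and MBOAT2 were higher in each of the 12 day 7 libraries than in any day 4 library (2 of 39 genes, against 3.50% of all genes). The LPCAT2 range was 3.36 to 6.19 FPKM in the day 4 libraries and 8.44 to 21.9 in those of day 7. GPAM, AGPAT1, CRLS1, CHKA and CEPT1 were lower in each day 7 library (5 of 39, against 14.5% of all genes). CHKA, for example, was 6.91 to 10.7 FPKM in day 4 and 2.51 to 6.51 in day 7 libraries.

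In the treatment comparisons, 0 of the 40 genes at day 4 (edgeR's quasi-likelihood test on counts) and 0 of 39 at day 7 (limma on log2(FPKM + 1)) passed the threshold of 0.05 on the adjusted p, in each of the 6 comparisons of a day. Without the block, 0% of all genes passed in each of these comparisons. CIDEC did not pass the filter of 1 FPKM in 3 libraries at day 7. The number was again 0 for each comparison with cow as a block, when 0.0736% of all genes were called for OA against CON and 0.221% for OA against PA at day 4, and 0% in each other comparison. Without the block, 0 genes of the pathway had an unadjusted p under 0.05 at day 4, where 0.11% (PA against CON), 0.177% (OA against CON), 0.118% (MIX against CON), 0.169% (OA against PA), 0.118% (MIX against PA) and 0.147% (MIX against OA) of all genes did. At day 7 without the block only LPIN1, for OA against CON, had one. The backgrounds there were 0.46%, 0.539%, 0.38%, 0.69%, 0.491% and 0.555% in the same order. DESeq2 on the day 4 counts also called 0 pathway genes. Without the block it called 0% of all genes in each comparison, and with it 0.243% for OA against CON, 0.0221% for MIX against CON, 0.434% for OA against PA and 0% in the other 3. For OA against CON with the block, DESeq2 gave LPCAT1 no adjusted p (unadjusted p = 0.0199). DESeq2 withholds an adjusted p below a mean count that it sets, and most pathway genes had fewer counts than LPCAT1. The 0 of that comparison is therefore no test of them. When cow 6 was left out, edgeR called 0 pathway genes at day 4, with or without the block. The share of all genes called was then 0% without the block, and with it 0.147%, 0.543%, 0.0954%, 1.46%, 0.183% and 0.0587% in the order given above.

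The differences were also small. With the block, 35 to 39 of the 40 genes lay within 0.25 log2 units of 0 in each comparison at day 4, and 34 to 39 of 39 at day 7. The 95% interval lay within 1 log2 unit of 0 for 39 of 40 genes at day 4, with CIDEC the exception, and for all 39 at day 7. It lay within 0.5 for 31 to 34 genes at day 4 and for 33 to 37 at day 7. The day 7 differences are on the log2(FPKM + 1) scale, which understates the change of low genes. These numbers therefore cannot be compared between the days. The median log2 difference of the pathway genes was between -0.03 and 0.02 in the 12 comparisons, and that of all genes between -0.01 and 0.01.

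**Figure D4:**
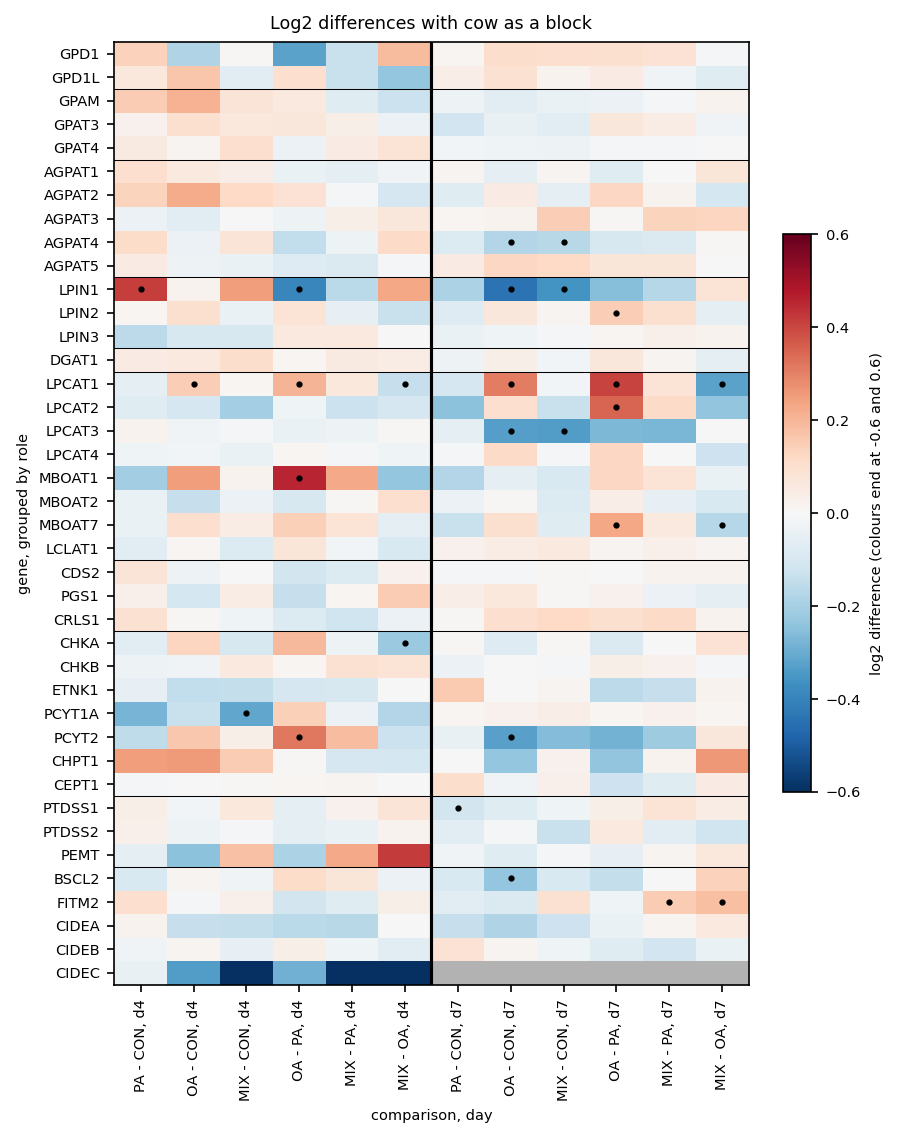
Log2 differences with cow as a block (colour, red higher and blue lower in the first-named group) of the 40 genes in the 6 comparisons of each day. Black dots mark an unadjusted p under 0.05, grey cells were not tested, and colours end at -0.6 and 0.6. LPCAT1 is dotted in the OA columns of both days, and the differences of CIDEC rest on levels near 0.

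With the block, unadjusted p-values under 0.05 came at day 4 from 1 of 40 genes for PA against CON (3.16% of all genes), 1 for OA against CON (5.20%), 1 for MIX against CON (3.48%), 4 for OA against PA (6.94%), 0 for MIX against PA (3.26%) and 2 for MIX against OA (2.97%). At day 7 they came from 1 of 39 for PA against CON (4.28%), 6 for OA against CON (9.27%), 3 for MIX against CON (3.41%), 4 for OA against PA (11.5%), 1 for MIX against PA (3.92%) and 3 for MIX against OA (10.4%). Those of these genes described below are given by FPKM or log2 difference, not as changes, and not every comparison counted here is described.

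LPCAT1 was the pathway gene with the clearest difference, and it was higher with OA. LPCAT1 lies on chromosome 20 from 71006062 to 71048066 on the plus strand, in a genome build not given in the sources used here, and overlaps no other annotated gene. At day 7 it was 39.1, 33.5 and 58.5 FPKM in CON of cows 1, 2 and 3, 35.1, 33.1 and 53.1 in PA, 51.3, 42.7 and 66.9 in OA, and 38.3, 33.8 and 56.9 in MIX. OA was the highest treatment in 3 of 3 cows, but the groups overlapped because cow 3 was high throughout. Group means were 43.7 ± 13.1 FPKM (SD, n = 3 cows) in CON, 40.4 ± 11.0 in PA, 53.6 ± 12.2 in OA and 43.0 ± 12.2 in MIX, the highest being 1.33 times the lowest.

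For OA against PA at day 7 the log2 difference was 0.41 ± 0.28 (SE) without the block (limma, adjusted p = 1.00) and 0.41 ± 0.05 with it (95% interval 0.29 to 0.52, adjusted p = 0.169). In edgeR on the recovered reads with the block it was 0.41 ± 0.06, with an adjusted p of 0.0195. That test called 8 of 13658 genes (0.0586%), and LPCAT1 was the 1 pathway gene among them. In the same test the adjusted p was 0.185 for OA against CON (0.31 ± 0.06), where 0 genes were called, and 0.0946 for MIX against OA (-0.33 ± 0.06), where 0.0146% were. DESeq2 on the recovered reads with the block called LPCAT1 in all 3, with adjusted p of 1.22e-05 (0.388% of all genes called), 0.0443 (0.0366%) and 0.00491 (0.242%).

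The call for OA against PA depended on single libraries. In edgeR on the recovered reads its adjusted p was 0.200 without cow 1 and 0.118 without cow 3. Without the PA library of cow 1, 2 or 3 it was 0.191, 0.0684 or 0.142, and without the OA library of cow 1 it was 0.0755. It stayed under 0.05 when cow 2, either other OA library, or any CON or MIX library was left out. Without the OA library of cow 3, LPCAT1 was also called for OA against CON (adjusted p = 0.0446) and for MIX against OA (0.0182). Over all these fits the log2 difference of OA and PA was between 0.34 and 0.46. The shares of all genes called in the fits that left out a cow or a library are not given here. How far LPCAT1 stood out in those fits is thus not shown.

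At day 4 LPCAT1 was 30.7, 45.5 and 65.6 FPKM in CON of cows 4, 5 and 6, 29.7, 46.4 and 60.4 in PA, 33.0, 50.7 and 75.9 in OA, and 30.2, 46.9 and 67.2 in MIX. OA was again the highest treatment in each of the 3 cows, and the groups overlapped. With the block, the log2 difference was 0.20 ± 0.07 for OA against PA (edgeR, adjusted p = 0.344), 0.13 ± 0.07 without cow 6, and 0.15 ± 0.07 for OA against CON (adjusted p = 0.911). The smooth muscle and myofibroblast marker sum was also higher in OA than in PA in each cow, at 420.3 against 328.4 FPKM in cow 4, 1032 against 900.9 in cow 5 and 2670 against 2314 in cow 6. At day 7 it was 1897 against 1625 FPKM in cow 1, 5213 against 5120 in cow 2 and 5765 against 5484 in cow 3. OA also had the highest sum of the 4 treatments in cows 1, 4 and 5, as it had for LPCAT1. CON and MIX were there at 1705 and 1711 FPKM (cow 1), 320.7 and 385.2 (cow 4), and 876.2 and 868.1 (cow 5). In cows 2, 3 and 6 OA did not have the highest sum. In cows 2 and 3 the OA sums were below those of CON, at 5543 and 5883 FPKM, and of MIX, at 5547 and 5949. In cow 6 the OA sum was below that of MIX (2727 FPKM) and above that of CON (2327 FPKM). The part of these markers in the difference of LPCAT1 was not tested.

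LPCAT3 and LPCAT2 had lower and more uneven values. LPCAT3 at day 7 was 11.3, 16.8 and 19.7 FPKM in CON of cows 1, 2 and 3, 9.99, 16.8 and 19.4 in PA, 11.3, 10.1 and 15.8 in OA, and 9.59, 11.7 and 15.9 in MIX. MIX was below CON in each cow, while OA was below CON in cows 2 and 3 and level with it in cow 1. The log2 difference of MIX and CON was -0.33 ± 0.13 (limma with the block, adjusted p = 1.00), and that of OA and CON was -0.33 ± 0.13 (adjusted p = 0.508), falling to -0.15 ± 0.11 without cow 2. At day 4 LPCAT3 was 11.1, 13.7 and 18.8 FPKM in CON of cows 4, 5 and 6, 10.7, 16.0 and 18.1 in PA, 9.15, 16.5 and 18.6 in OA, and 10.0, 16.1 and 17.9 in MIX. The treatment means of day 4 differed by at most 1.02 times. LPCAT3 overlaps EMG1 on the opposite strand. LPCAT2 and MBOAT7 had positive differences of OA and PA at day 7, of 0.35 ± 0.15 (adjusted p = 0.425; 0.17 without cow 3 and 0.61 without cow 1) and 0.23 ± 0.07 (adjusted p = 0.333; 0.12 without cow 1), and LPIN2 one of 0.15 ± 0.05 (adjusted p = 0.362; 0.10 without cow 1).

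MBOAT1, which acylates lysophosphatidylserine and lysophosphatidylethanolamine, was the pathway gene with the smallest p for OA against PA at day 4. It was 6.06, 4.34 and 2.47 FPKM in CON of cows 4, 5 and 6, 5.33, 3.28 and 2.52 in PA, 8.05, 4.05 and 3.40 in OA, and 6.75, 4.09 and 2.45 in MIX. OA exceeded PA in each cow, and the groups overlapped. The log2 difference was 0.46 ± 0.13 (edgeR with the block, adjusted p = 0.222), and that of MIX and PA, also the smallest p of its comparison, was 0.23 ± 0.14. At day 7 MBOAT1 was 4.51, 3.63 and 3.78 FPKM in CON of cows 1, 2 and 3, 4.01, 3.63 and 2.65 in PA, 4.44, 3.52 and 3.45 in OA, and 3.91, 3.77 and 3.30 in MIX.

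**Figure D5:**
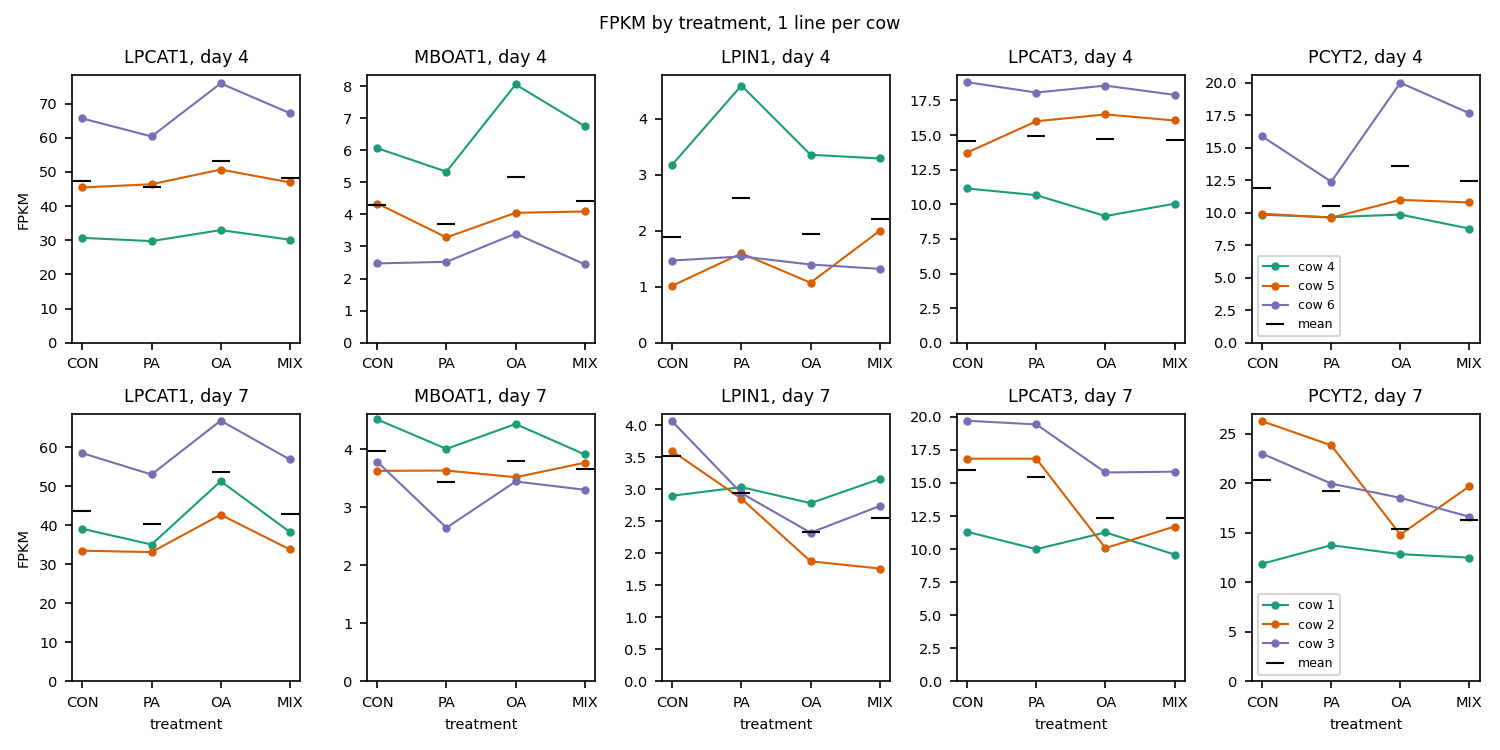
FPKM of LPCAT1, MBOAT1, LPIN1, LPCAT3 and PCYT2 by treatment at day 4 (top) and day 7 (bottom), with 1 line per cow and black bars at the means of the 3 cows. LPCAT1 peaks at OA in all 6 cows, and LPIN1 has its highest mean in PA at day 4 and in CON at day 7.

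By mean, LPIN1 was lowest in CON at day 4 and highest in CON at day 7, with PA above MIX and MIX above OA both times. At day 4 it was 3.18, 1.02 and 1.47 FPKM in CON of cows 4, 5 and 6, 4.60, 1.60 and 1.54 in PA, 3.36, 1.07 and 1.40 in OA, and 3.29, 2.00 and 1.32 in MIX. PA exceeded CON and OA in each cow, with cow 6 showing the narrowest gap. The log2 difference of PA and CON was 0.41 ± 0.19 (edgeR with the block, adjusted p = 1.00) and that of OA and PA -0.39 ± 0.19 (adjusted p = 0.716). At day 7 LPIN1 was 2.90, 3.59 and 4.06 FPKM in CON of cows 1, 2 and 3, 3.03, 2.85 and 2.94 in PA, 2.78, 1.87 and 2.32 in OA, and 3.16, 1.76 and 2.74 in MIX. The 3 OA libraries lay below all CON and all PA libraries, as for 1.33% and 1.46% of all genes, and LPIN1 was the 1 pathway gene to do so in either comparison.

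For OA against CON at day 7 the difference of LPIN1 was -0.44 ± 0.14 on the log2(FPKM + 1) scale (limma with the block, adjusted p = 0.452), and for MIX against CON it was -0.36 ± 0.14 (adjusted p = 1.00). Cow 1 showed little of either, and without it they were -0.64 ± 0.13 and -0.59 ± 0.13. Without cow 2 they were -0.33 ± 0.15 and -0.17 ± 0.15. The effect of a treatment at day 7 minus that at day 4 was tested over 12132 genes in limma with the block, and 0 of 39 pathway genes had an adjusted p under 0.05, as did 0% of all genes. For LPIN1 it was -0.46 ± 0.21 for PA, -0.46 ± 0.21 for OA and -0.53 ± 0.21 for MIX (adjusted p = 0.999, 0.886 and 0.979). Unadjusted p-values under 0.05 came from 2 of 39 genes for PA (4.64% of all genes), 5 for OA (5.49%) and 2 for MIX (4.44%). The other genes were PTDSS1 (PA), LPCAT1, BSCL2, PCYT2 and CHPT1 (OA), and AGPAT4 (MIX).

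In the head group branch, PCYT2 was 9.85, 9.93 and 15.9 FPKM in CON of cows 4, 5 and 6 at day 4, 9.66, 9.63 and 12.4 in PA, 9.87, 11.0 and 20.0 in OA, and 8.78, 10.8 and 17.7 in MIX. The difference of OA and PA was 0.31 ± 0.12 (edgeR with the block, adjusted p = 0.516) and 0.10 ± 0.13 without cow 6. PCYT2 at day 7 was 11.9, 26.3 and 23.0 FPKM in CON of cows 1, 2 and 3, 13.8, 23.9 and 20.0 in PA, 12.8, 14.8 and 18.5 in OA, and 12.5, 19.7 and 16.6 in MIX. OA lay below CON in cows 2 and 3 and above it in cow 1, with a difference of -0.33 ± 0.14 (limma with the block, adjusted p = 0.523) and -0.10 ± 0.12 without cow 2 or -0.54 ± 0.14 without cow 1.

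PCYT1A in MIX was 15.8, 15.1 and 4.07 FPKM in cows 4, 5 and 6 at day 4, against 15.2, 16.5 and 8.35 in CON, 14.4, 14.2 and 5.72 in PA, and 17.9, 15.8 and 5.21 in OA. Its difference of MIX and CON was -0.31 ± 0.14 (edgeR with the block, adjusted p = 0.994) and -0.05 ± 0.10 without cow 6 or -0.54 ± 0.17 without cow 4. At day 7 PCYT1A was 12.4, 13.7 and 12.4 FPKM in CON of cows 1, 2 and 3, 13.1, 13.5 and 12.3 in PA, 12.5, 13.7 and 13.0 in OA, and 14.3, 12.9 and 12.4 in MIX. The 12 values of day 7 lay within 12.3 to 14.3 FPKM, and the treatments overlapped. PCYT1A overlaps SLC51A on the opposite strand.

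CHKA at day 4 was 9.10, 7.63 and 8.52 FPKM in CON of cows 4, 5 and 6, 8.72, 7.69 and 7.81 in PA, 9.71, 7.55 and 10.7 in OA, and 8.02, 6.91 and 8.90 in MIX. MIX was below OA in each cow, with a log2 difference of -0.22 ± 0.10 (edgeR with the block, adjusted p = 1.00). Its day 7 values were 5.59, 3.12 and 4.56 FPKM in CON of cows 1, 2 and 3, 6.51, 2.51 and 4.85 in PA, 5.18, 2.87 and 4.37 in OA, and 6.25, 2.74 and 4.68 in MIX. Cow 2 was the lowest cow in every treatment, and no treatment was highest in all cows.

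FITM2 at day 7 was 13.9, 27.5 and 18.2 FPKM in CON of cows 1, 2 and 3, 13.9, 27.6 and 16.0 in PA, 12.5, 26.2 and 17.6 in OA, and 14.0, 31.9 and 19.0 in MIX. MIX was the highest treatment in each cow, with log2 differences of 0.15 ± 0.06 against PA (limma with the block, adjusted p = 0.999) and 0.18 ± 0.06 against OA (adjusted p = 0.390). Without cow 1, 2 or 3 the difference was 0.22 ± 0.08, 0.13 ± 0.08 or 0.11 ± 0.08 against PA. Against OA it was then 0.19 ± 0.08, 0.13 ± 0.08 or 0.21 ± 0.08. At day 4 FITM2 was 25.9, 23.6 and 19.5 FPKM in CON of cows 4, 5 and 6, 29.2, 22.9 and 22.5 in PA, 25.2, 22.8 and 21.0 in OA, and 26.6, 21.6 and 22.4 in MIX. MIX was highest in none of the cows of day 4. For BSCL2, OA was below CON in each cow of day 7, at -0.23 ± 0.07 (limma with the block, adjusted p = 0.434). Without cow 1, 2 or 3 this was -0.16 ± 0.08, -0.20 ± 0.09 or -0.34 ± 0.07. For PTDSS1, PA was below CON in each cow of day 7, at -0.11 ± 0.04 (adjusted p = 0.998), and at -0.07 ± 0.06 without cow 3. For AGPAT4 at day 7 the differences from CON were -0.18 ± 0.07 with OA and -0.17 ± 0.07 with MIX (adjusted p = 0.516 and 1.00). Leaving out cow 1 enlarged them to -0.25 ± 0.06 (OA) and -0.27 ± 0.06 (MIX). They shrank to -0.14 ± 0.10 and -0.11 ± 0.10 when cow 2 was dropped. Dropping cow 3 gave -0.13 ± 0.10 for both.

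Of further genes of the same pathways, which hold among others phosphatidic acid phosphatases, diacylglycerol kinases, monoacylglycerol acyltransferases and ether lipid enzymes, 31 were found and 23 were tested at each day. In each of the 12 comparisons, 0 of the 23 had an adjusted p under 0.05, with or without the block. With the block, unadjusted p-values under 0.05 came at day 4 from 1, 0, 1, 1, 2 and 1 of the 23, in the order of comparisons used above, where 3.16%, 5.20%, 3.48%, 6.94%, 3.26% and 2.97% of all genes had one. At day 7 they came from 0, 0, 4, 3, 0 and 3, where 4.28%, 9.27%, 3.41%, 11.5%, 3.92% and 10.4% did.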

How the data were processed

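RNA-seq libraries of 24 cultures were used. The submitters' processing notes name featureCounts 1.5.0-p3, StringTie 1.3.3b and FastQC 0.11 without their roles. Not given in the sources used here are an aligner, a build and whether counting used strand. For day 4 the authors deposited raw counts of reads per gene together with their FPKM. The deposited day 7 table holds FPKM alone, from which reads were recovered with the gene length (100% whole within 0.01).

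Day 4 counts were filtered with filterByExpr, scaled by TMM and tested with edgeR 4.0.16 on group means over 13580 genes. Day 7 FPKM (at least 1 in 3 libraries, 12615 genes) were tested with limma 3.58.1 on log2(FPKM + 1). A pseudocount of 1 understates the change of low genes. R 4.3.3, DESeq2 1.42.0, Python 3.11.15 and matplotlib 3.10.9 were also used. P-values were two-sided and adjusted by Benjamini-Hochberg over all genes, with a threshold of 0.05. The SE of an edgeR difference was taken from its F statistic. Each fit was also made with cow as a block, since a cow number names 1 animal in the 4 treatments. This pairing was checked: deviations from the group means correlated at 0.757 to 0.912 for 18 same-cow pairs at day 4 and 0.772 to 0.864 at day 7, and at most at 0.0369 and -0.31 for other pairs. The tests were also run on simulated data. The outcome is not given here, and no result rests on it.

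The genes and lists were chosen with earlier results of these data known. Values in every library are given for genes called in any comparison, for the smallest p of each comparison with the block and for the most abundant gene of each role, and PCYT2 was added after its values were seen. A count of 0 allows up to 0.222 CPM at day 4 and 0.213 at day 7 (3 counts, counting error only). Alternatives were DESeq2, limma on day 4 FPKM, other filters, scaling and pseudocounts, tests on the recovered reads, and leaving out each cow or library. Other doses, mixtures and antagonist arms were not analysed here.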

Additional observations from a re-analysis of the deposited data

How the results depend on the processing

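In 423 of the recomputed counts of called pathway genes, the count stayed at 0, as in the fits reported, and 15 moved to 1, each time LPCAT1 at day 7. For OA against CON at day 4, the 0 of DESeq2 with the block could not include LPCAT1, which had no adjusted p there. With the replicate block in edgeR on the recovered reads, 1 pathway gene was called for OA against PA (0.0586% of all genes). In DESeq2 on the recovered reads with the block, 1 pathway gene was called for OA against PA, OA against CON and MIX against OA (0.388%, 0.0366% and 0.242% of all genes). Over the fits that left out a cow or a library the counts of pathway genes in these 3 comparisons were 0 to 1. The shares of all genes called in those fits are not given here. The tests on recovered reads other than edgeR with and without the block were chosen after seeing the data. The replicate block, paired by cow, changed no call of a pathway gene in edgeR at day 4 or limma at day 7. Over all genes it moved the calls at day 4 from 0 to 10 for OA against CON and from 0 to 30 for OA against PA. It narrowed the SE of LPCAT1 for OA against PA at day 7 from 0.28 to 0.05. Log2 differences of the genes with the smallest p of each comparison kept their sign in every alternative run (29 at day 4 and 43 at day 7). That of PCYT1A for MIX against CON ranged from -0.54 to -0.05. The runs reuse the libraries from which these genes were picked, so a kept sign is no independent support. Why the recovered reads and the FPKM give different calls for LPCAT1 was not tested. With 3 cows per day, and 4 treatments sharing them, precision is limited by the number of animals, and genes near 1 FPKM also by depth.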
